A study of Mus musculus with 18 samples.

Results

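The genes described here are 9 sensors and adaptors through which cells of the colon detect bacteria: the receptors *Nod1*, *Nod2*, *Tlr2*, *Tlr4* and *Tlr5*, the kinase *Ripk2*, and the adaptor or scaffold genes *Inava*, *Myd88* and *Tirap*. They were taken by name, for what they are known to do, from the 47729 genes of the count table, and no value threshold chose them. The list was selected on function with the levels of these genes in the 6 groups (CPM, reads scaled to a common library size), and the results below, already known, so the values below describe these genes and the number of them that moved is not independent evidence. All 9 had enough reads to enter the test, which covered 16937 genes.

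RNA was sequenced from the colon of mice that lacked claudin-2 (*Cldn2*KO), a protein of tight junctions that forms a channel for small cations and water, and of wild-type (WT) mice. Each genotype had 3 groups: untreated controls, mice labelled as recovering (mucosal repair) after dextran sulfate sodium (DSS), an agent in drinking water that injures the colon lining, and mice given azoxymethane and DSS (AOM/DSS), which produces colitis-associated tumors. A protocol text given alike for every sample, controls included, names 1 dose of AOM at 10 mg/kg and 3 cycles of 2.5% DSS, read here as the AOM/DSS scheme; the labels name no age or recovery time. The lines were on a C57BL/6 background. Littermates served as controls and animals were matched for age and sex, per the methods of the study. Its results, in a section on WT mice, name distal colon as the source of RNA from recovering mice. There were 3 libraries in each of the 6 groups, 18 in all. The labels do not say that each library is a separate animal, so p-values measure the spread between these libraries.

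Nod1 and Nod2 are receptors inside the cell that recognise fragments of the bacterial cell wall, Nod1 a diaminopimelic acid peptide and Nod2 muramyl dipeptide. Both pass the signal to the kinase Ripk2, which leads to NF-kB and MAP kinase activation. Toll-like receptors sit in membranes: Tlr2 binds lipoproteins, Tlr4 lipopolysaccharide and Tlr5 flagellin, and they signal through the adaptor Myd88, which Tirap bridges to Tlr2 and Tlr4. Inava, whose human counterpart lies at a locus linked to inflammatory bowel disease, is a scaffold at epithelial cell junctions that has also been tied to signalling after Nod2 stimulation. In the colon these genes are used by both epithelial cells and resident immune cells.

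The libraries held between 17.6 M and 27.4 M counted reads. *Cldn2* was between 44.5 and 504 CPM in the WT libraries and at most 0.557 CPM in the *Cldn2*KO libraries, so the labelled genotypes were borne out in all 18. Epithelial markers (10 genes such as *Epcam* and *Krt8*) summed to 13934 to 27026 CPM in every library. The libraries split by distal Hox genes, which mark the anal end of the hindgut. *Hoxb13* was above 10 CPM in 11 libraries, and 6 distal Hox genes summed to between 1.77 and 10.999 CPM in the other 7, against 521 to 892 CPM in the 11. The 7 were all 6 recovery libraries and replicate 2 of the WT controls, so Hox state and recovery cannot be told apart in *Cldn2*KO mice. The recovery tissue is named as distal colon, in a section on WT mice. Whether the 7 and the 11 came from the same position along the colon is not given in the sources used here. Position and recovery cannot be told apart either. In WT mice only that 1 control library shares the recovery libraries' Hox state. *Xist*, transcribed in female cells, was above 10 CPM in 6 libraries: replicates 2 and 3 of WT recovery, of *Cldn2*KO recovery and of *Cldn2*KO AOM/DSS. No control or WT AOM/DSS library was among them, so *Xist* state differed between groups although the methods state matching for sex.

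The results below turn on *Nod2*, *Tlr2*, *Tlr5* and *Inava*, and the sequence just before each of these 4 genes is shown because they were the 4 called higher in the same comparison, recovery against control in *Cldn2*KO mice. The sequences are RefSeq bases of GRCm38.p6, 5′ to 3′ on the gene's own strand, ending before the annotated gene. Matches to the NF-kB consensus, in *Tlr2*, and to the GC box GGGCGG on either strand, in the other 3, are in capitals.
Nod2, chr8:88647097-88647314, plus strand: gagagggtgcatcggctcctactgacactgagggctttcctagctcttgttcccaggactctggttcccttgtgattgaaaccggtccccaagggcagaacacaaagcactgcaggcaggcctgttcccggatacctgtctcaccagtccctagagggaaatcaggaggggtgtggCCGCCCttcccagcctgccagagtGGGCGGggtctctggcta
Tlr2, chr3:83841768-83841858, minus strand: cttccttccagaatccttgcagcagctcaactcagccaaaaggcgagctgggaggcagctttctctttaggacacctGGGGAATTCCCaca
Tlr5, chr1:182954538-182954787, plus strand: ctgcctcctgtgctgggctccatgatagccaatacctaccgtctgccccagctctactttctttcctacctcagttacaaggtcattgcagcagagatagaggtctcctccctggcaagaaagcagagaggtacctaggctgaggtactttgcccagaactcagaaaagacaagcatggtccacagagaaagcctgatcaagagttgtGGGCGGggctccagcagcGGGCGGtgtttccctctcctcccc
Inava, chr1:136234281-136234530, minus strand: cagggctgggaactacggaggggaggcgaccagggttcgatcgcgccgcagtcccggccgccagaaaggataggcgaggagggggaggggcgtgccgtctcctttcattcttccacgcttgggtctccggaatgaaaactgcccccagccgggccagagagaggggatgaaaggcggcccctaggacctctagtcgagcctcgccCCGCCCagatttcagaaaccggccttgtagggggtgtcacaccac

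Promoter entries of 300 bases, from 250 before to 50 after the start, were matched for 7 of the 9 genes; *Ripk2* and *Tlr4* were not matched. *Tlr2* held 3 matches to the 10-letter NF-kB consensus in its window, of which 2 overlap in the stretch printed, and no other of the 7 genes held one. Of all 32544 distinct windows, 8.49% held such a match. The GC box stood in a window of every one of the 7 genes and in 35.9% of all windows. The AP-1 letters TGANTCA (7.79% of all windows) were found in none of the 7, and the GAS letters TTCNNNGAA (8.33%) in *Myd88* and in 1 of 2 windows of *Nod1*. The motifs were chosen after the expression values were seen. A match describes letters and not a site in use.

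All 9 genes are protein coding. In the GRCm38 annotation *Nod1* (ENSMUSG00000038058) lies on chromosome 6 from 54923949 to 54972612 on the minus strand, *Nod2* (ENSMUSG00000055994) on chromosome 8 from 88647315 to 88688474 on the plus strand, and *Tlr2* (ENSMUSG00000027995) on chromosome 3 from 83836272 to 83841767 on the minus strand. *Tlr4* (ENSMUSG00000039005) runs from 66827584 to 66930284 on the plus strand of chromosome 4, which also carries *Ripk2* (ENSMUSG00000041135) from 16122733 to 16163647 on the minus strand. Chromosome 1 holds *Tlr5* (ENSMUSG00000079164), from 182954788 to 182976044 on the plus strand, and *Inava* (ENSMUSG00000041605), from 136213531 to 136234264 on the minus strand. Chromosome 9 holds *Myd88* (ENSMUSG00000032508), from 119335934 to 119341411, and *Tirap* (ENSMUSG00000032041), from 35184551 to 35200291, both on the minus strand. Whether reads were counted by strand is not given in the sources used here. *Myd88* overlaps *Acaa1a* on the opposite strand by 1736 bases and *Tirap* overlaps *Srpr* by 117 bases, so the counts of *Myd88* and *Tirap* could hold or lose reads at those overlaps. *Myd88* also lies within *Slc22a14* on the same strand (5478 bases, 5 reads for *Slc22a14* over the 18 libraries), *Tirap* overlaps the antisense gene *Gm39318* by 5155 bases, and *Inava* overlaps the antisense gene *Gm26568* by 8998 bases. *Gm26568* had 0 reads in the 18 libraries, and reads of *Inava* and of *Gm26568* cannot be told apart without strand.

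The 9 genes lay at very different levels. Per kb of exon length, the median over the 18 libraries was highest for *Inava*, at 13.4 CPM per kb, followed by *Myd88* at 9.60, *Tlr2* at 9.20, *Tlr4* at 7.43 and *Tirap* at 6.37 CPM per kb. *Ripk2* and *Nod1* were lower, with medians of 3.72 and 2.84 CPM per kb. *Nod2* and *Tlr5* were the lowest, with medians of 0.693 and 0.443 CPM per kb. The lowest library of *Inava* (9.20 CPM per kb) lay above the highest library of *Ripk2* (5.25), *Nod1* (4.59), *Tlr5* (4.63), *Nod2* (1.51) and *Tirap* (8.57 CPM per kb), whereas its range overlapped those of *Myd88*, *Tlr2* and *Tlr4*.

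**Figure D1:**
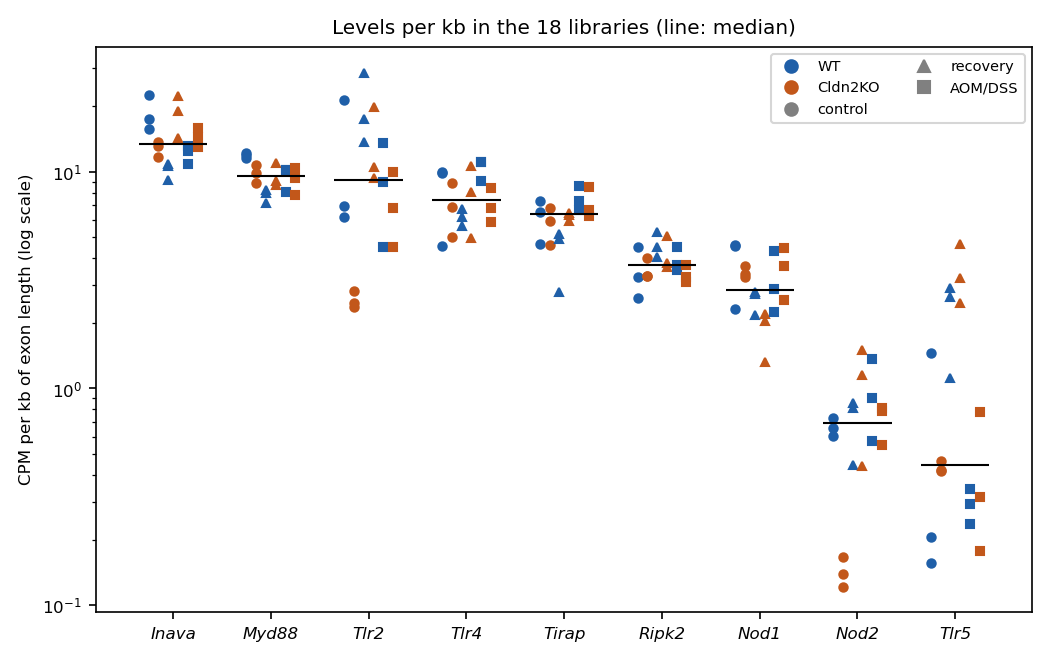
Level of each of the 9 genes in CPM per kb of exon length (log scale) in all 18 libraries, with genotype as color, treatment as marker shape and the median as a line. *Inava* has the highest median (13.4) and *Tlr5* the lowest (0.443), and the points of *Tlr5*, *Nod2* and *Tlr2* spread most.

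The genes also differed in how much they varied. The highest library of *Tlr5* was 29.7 times the lowest, and the same ratio was 12.4 for *Nod2* and 11.99 for *Tlr2*. It was 3.47 for *Nod1*, 3.07 for *Tirap*, 2.46 for *Inava*, 2.44 for *Tlr4*, 1.999 for *Ripk2* and 1.70 for *Myd88*. The 3 genes with the widest range were thus receptors, and the 4 intracellular adaptor and kinase genes stayed within 3.07-fold.

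**Figure D2:**
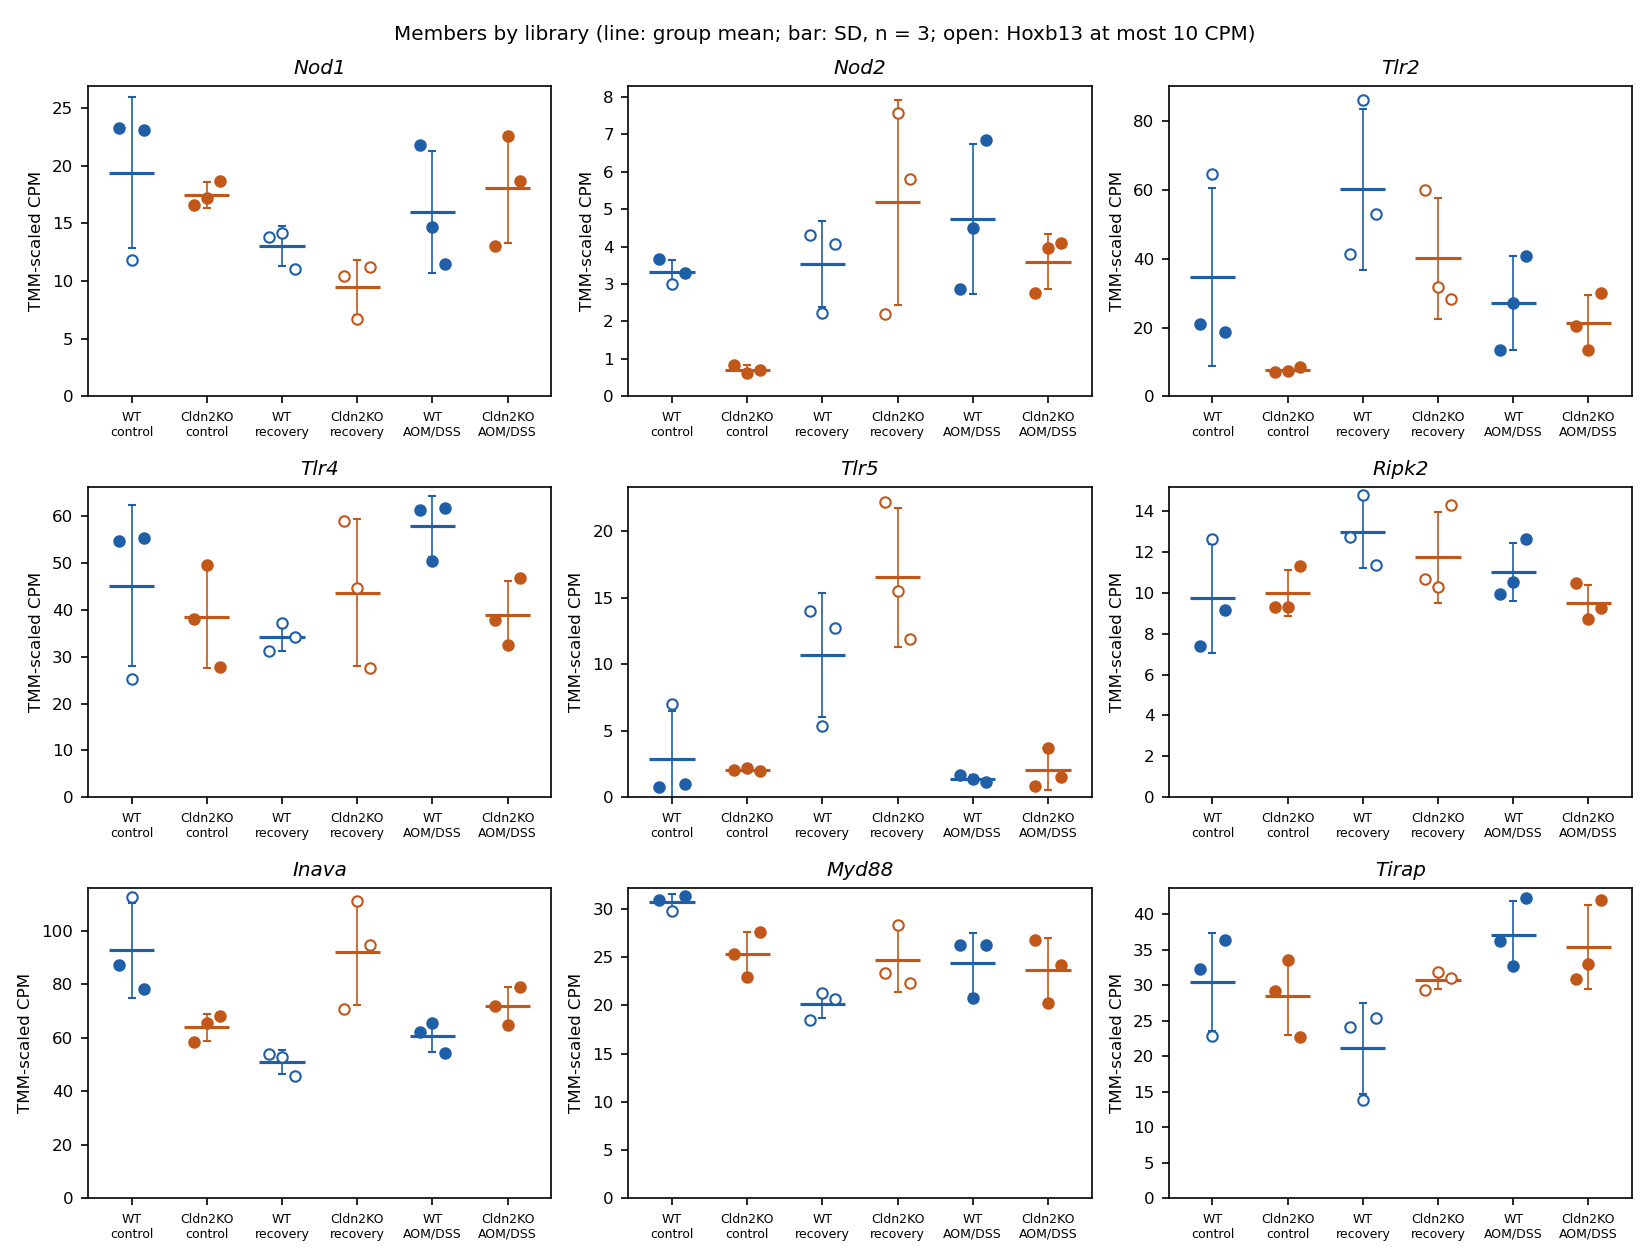
TMM-scaled CPM of the 9 genes in each of the 18 libraries by group, with the group mean as a line and the SD (n = 3) as a bar, which is cut at 0 for *Tlr5*. Open circles are the 7 libraries with *Hoxb13* at or under 10 CPM, and the 3 *Cldn2*KO control libraries sit lowest of all for *Nod2* and *Tlr2*.

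In untreated colon, *Nod2* was lower in *Cldn2*KO than in WT mice. Its level was 3.66, 3.01 and 3.29 CPM in the WT controls (46 to 93 reads) and 0.838, 0.610 and 0.700 CPM in the *Cldn2*KO controls (11 to 17 reads). The groups did not overlap, and every *Cldn2*KO control library was also below all 15 other libraries. The log2 fold change was -2.20 ± 0.45 (SE), a 4.60-fold lower level, with an edgeR adjusted p of 0.0263. In bulk tissue, fewer cells that use a gene and less of its RNA per cell cannot be told apart. The call was lost when any 1 of the 3 *Cldn2*KO control libraries was left out (log2 fold change -2.33 to -2.10, adjusted p from 0.0547 to 0.155) and held without WT control replicate 2 (-2.29, adjusted p = 0.0334); over all alternatives the adjusted p was between 0.000363 and 0.155.

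*Tlr2* was at 21.04, 64.6 and 18.7 CPM in the WT controls and at 7.20, 7.49 and 8.45 CPM in the *Cldn2*KO controls. The groups did not overlap, and WT control replicate 2, one of the libraries without distal Hox expression, was far above the other WT controls. The log2 fold change was -2.17 ± 0.52, 4.50-fold lower, and missed the threshold by edgeR (adjusted p = 0.0581) but passed it by DESeq2 (-2.18, adjusted p = 0.000868). It also passed by limma-voom with sample weights, in which libraries that fit their group less well count for less, at a smaller log2 fold change of -1.46 (adjusted p = 0.00651). Without WT control replicate 2 the difference shrank to -1.39 on the log2 scale (adjusted p = 0.209), and without either of the other WT controls it passed the threshold (adjusted p = 0.0376 and 0.0388).

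*Inava* was at 87.1, 112.7 and 78.2 CPM in WT controls and 58.4, 65.5 and 68.2 CPM in *Cldn2*KO controls, again without overlap. Its log2 fold change of -0.53 ± 0.17 did not pass by edgeR (adjusted p = 0.152) and did by limma-voom (-0.43, adjusted p = 0.0167). *Myd88* did not overlap between the genotypes either, at 29.7 to 31.4 CPM in WT and 23.0 to 27.6 CPM in *Cldn2*KO controls. Of the 9 genes, 1 was called between the genotypes in controls, where 1.17% of all genes were called, and 4 did not overlap, where 22.3% of all genes did not. The 6 genes without an unadjusted p under 0.05 had log2 fold changes between -0.46 (*Tlr5*) and 0.040 (*Ripk2*), and the median of the 9 was -0.28, beside -0.0055 over all genes tested. The value of *Tlr5* rested on WT control replicate 2, and its sign turned without that library, as given near the end.

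Markers of other cells also differed between these controls. The 10 T and B cell markers summed to 13.6, 121 and 69.5 CPM in WT and 3.89, 2.94 and 82.1 CPM in *Cldn2*KO controls, with 2 of 10 called lower, and 12 macrophage and monocyte markers summed to 238 to 301 CPM in WT and to 137, 111 and 389 CPM in *Cldn2*KO controls, with none of 12 called. The 8 neutrophil markers summed to at most 2.47 CPM in these 6 libraries, with *Retnlg* at 0 reads in both groups and *Mmp8* at 0 in *Cldn2*KO. In *Cldn2*KO control replicate 3, the library with the highest macrophage sum and the highest lymphocyte sum of its group, *Nod2*, at 0.700 CPM, lay between the other 2, and *Tlr2*, at 8.45 CPM, was the highest of the 3 and below every WT control. Epithelial markers summed to 25222 to 27026 CPM in WT and 20587 to 25182 CPM in *Cldn2*KO controls, without overlap, with 0 of 10 called by edgeR and 4 at an unadjusted p under 0.05. Smooth muscle markers summed to 3528 to 5313 CPM in WT and 7225 to 9601 CPM in *Cldn2*KO controls, and the part of these cells in the differences was not tested.

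During recovery the genotypes differed in *Inava*. It was at 53.9, 53.0 and 45.8 CPM in WT and at 71.0, 111.0 and 94.8 CPM in *Cldn2*KO recovery, so that every *Cldn2*KO library was above every WT library. The log2 fold change was 0.86 ± 0.17, 1.81-fold higher (adjusted p = 0.0320). The direction was thus opposite to that in the controls, where the *Cldn2*KO libraries were lower. The call was lost without WT recovery replicate 2 or 3 or *Cldn2*KO recovery replicate 2 (adjusted p = 0.133, 0.0786 and 0.207). It was also lost with the *Xist* covariate (adjusted p = 0.0522) and with only the groups compared (adjusted p = 0.211). The adjusted p was between 0.000750 and 0.211 over all alternatives. Epithelial markers had a log2 fold change above 0 for 8 of 10 (median 0.32), and macrophage markers had one above 0 for 1 of 12 (median -0.69, with 3 at an unadjusted p under 0.05). None of either list was called by edgeR, and the part of these cells in the result was not tested.

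*Tirap*, the bridging adaptor, was at 24.1, 13.8 and 25.4 CPM in WT and 29.2, 31.8 and 31.0 CPM in *Cldn2*KO recovery. The groups did not overlap, but the difference of 0.54 ± 0.23 on the log2 scale did not pass (adjusted p = 0.203). *Nod2*, the gene called in the controls, overlapped fully here, at 4.31, 2.22 and 4.08 CPM in WT and 2.20, 7.56 and 5.81 CPM in *Cldn2*KO recovery. *Tlr2* overlapped too, at 41.3, 86.3 and 53.0 CPM in WT and 60.1, 31.8 and 28.3 CPM in *Cldn2*KO recovery. Of the 9 genes 1 was called (0.974% of all genes) and 3 did not overlap (23.9% of all genes), the third being *Myd88* (18.5 to 21.2 CPM in WT and, in *Cldn2*KO, 22.3 to 28.3 CPM). The 7 genes without an unadjusted p under 0.05 ranged from -0.59 (*Tlr2*) to 0.62 (*Tlr5*) in log2 fold change.

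After AOM/DSS none of the 9 genes was called between the genotypes by edgeR, none had an unadjusted p under 0.05 (5.60% of all genes did), and DESeq2 and limma-voom also called 0; of all genes 0.00590% were called. The log2 fold changes lay between -0.57 and 0.56. *Tlr4*, the lipopolysaccharide receptor, was the 1 gene of the 9 without overlap (11.3% of all genes), at 61.3, 50.3 and 61.6 CPM in WT and 37.8, 32.5 and 46.7 CPM in *Cldn2*KO mice, with a log2 fold change of -0.57 and an adjusted p of 0.871. *Nod2* in AOM/DSS was at 2.86, 4.51 and 6.86 CPM in WT and at 2.76, 3.96 and 4.09 CPM in *Cldn2*KO mice, and the groups overlapped.

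**Figure D3:**
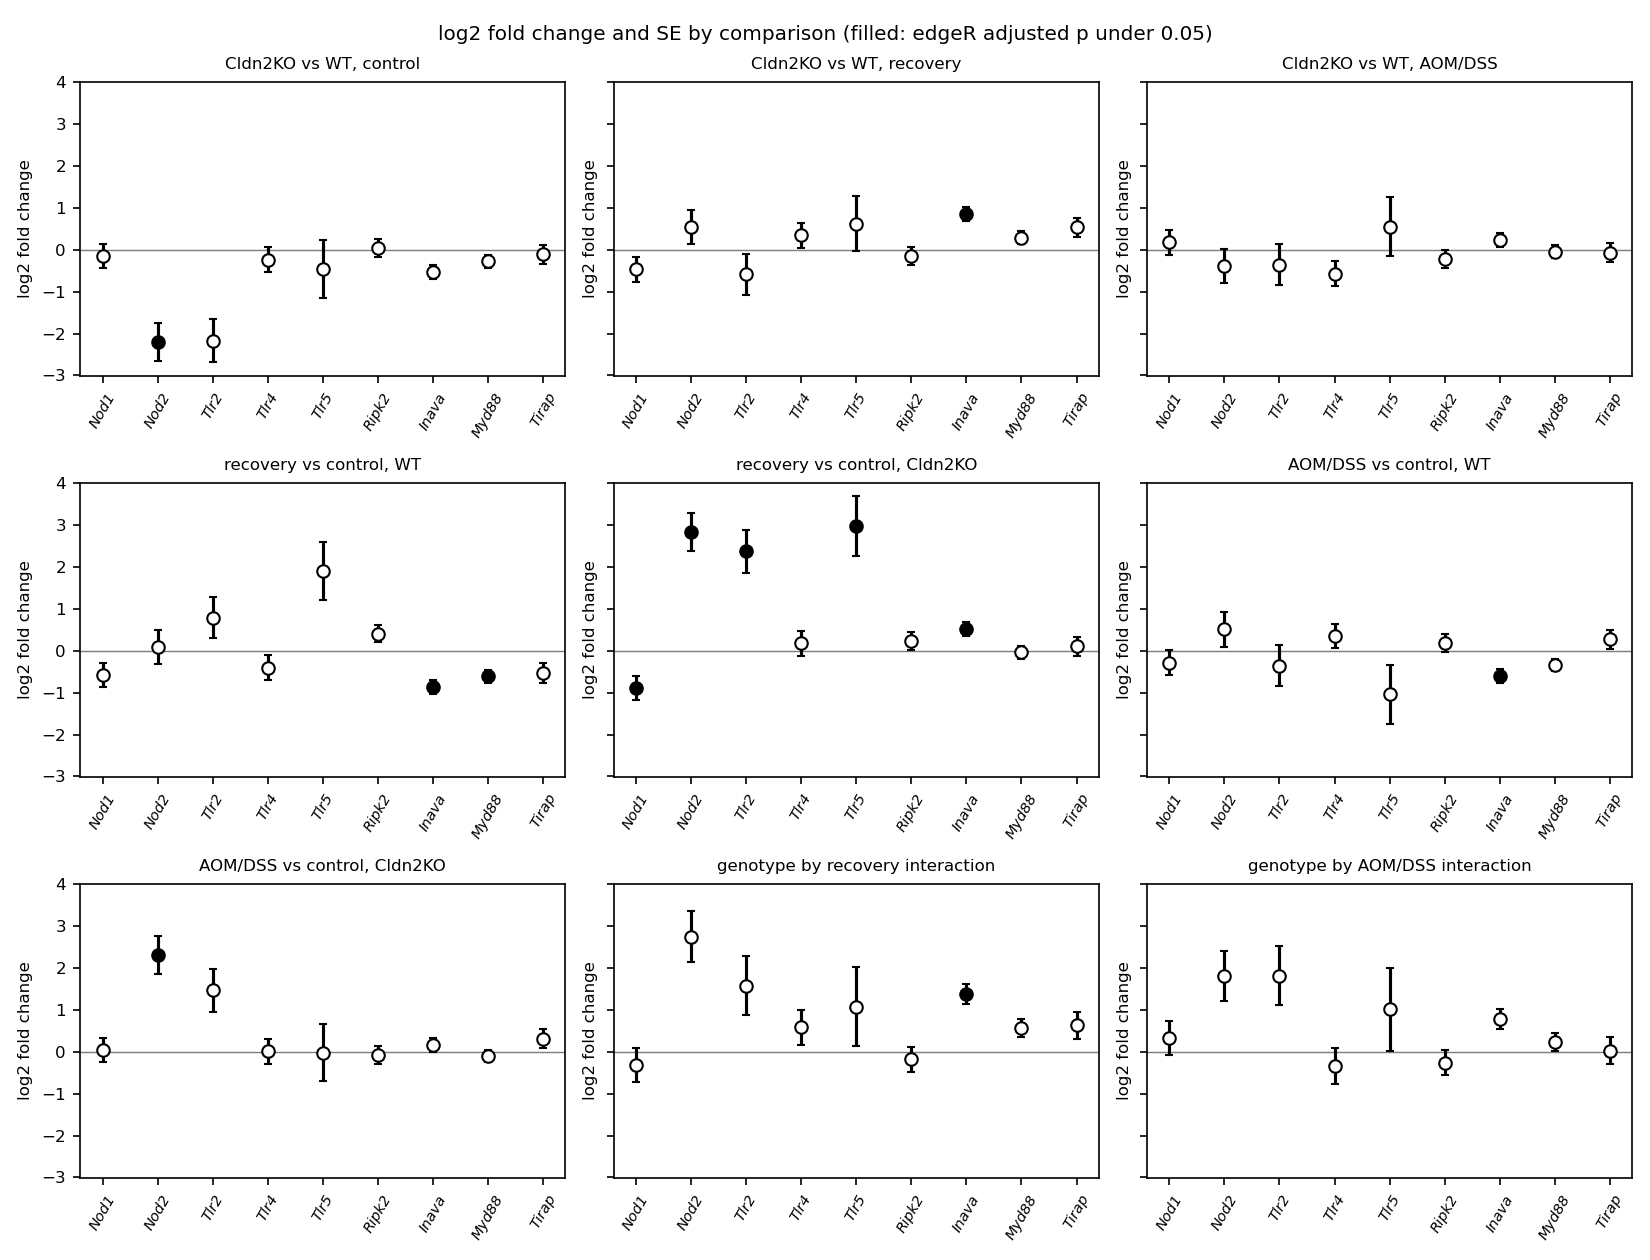
log2 fold change of the 9 genes in each of the 9 comparisons, with the SE as a bar and a filled point where the edgeR adjusted p was under 0.05. *Nod2* is filled below 0 in controls (*Cldn2*KO against WT) and above 0 for recovery and AOM/DSS against control in *Cldn2*KO mice, and *Inava* is filled in 5 panels.

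The next comparisons set recovery against control within each genotype, and the *Cldn2*KO and WT control libraries are shared with the comparisons above. In WT mice *Inava* and *Myd88* fell. *Inava* went from 87.1, 112.7 and 78.2 CPM in controls to 53.9, 53.0 and 45.8 CPM in recovery, without overlap, a log2 fold change of -0.86 ± 0.17 (adjusted p = 0.00326). This call held in all 15 alternatives, with the adjusted p at most 0.0282. *Myd88* went from 30.9, 29.7 and 31.4 CPM to 18.5, 21.2 and 20.6 CPM, also without overlap, a log2 fold change of -0.61 ± 0.15 (adjusted p = 0.0101). It was lost in 1 of 15 alternatives, with Hox state as a covariate (-0.56, adjusted p = 0.0964). Epithelial markers moved with these genes: 5 of 10 were called lower in WT recovery (median log2 fold change -0.71), and they summed to 25222 to 27026 CPM in controls and 16584 to 24822 CPM in recovery. Their part in the result was not tested.

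*Tlr5* was at 0.747, 7.01 and 0.987 CPM in WT controls and 13.96, 5.38 and 12.7 CPM in WT recovery. WT control replicate 2 was above WT recovery replicate 2, so the groups overlapped, and the log2 fold change of 1.91 ± 0.69 missed the threshold by edgeR (adjusted p = 0.0589) and passed it by DESeq2 (1.90, adjusted p = 0.0193). In limma-voom the estimate itself was larger, at 3.70 (adjusted p = 8.55e-07), and with Hox state as a covariate in edgeR it was smaller, at 0.61 (adjusted p = 0.573). *Tirap* fell short by edgeR as well, at -0.53 ± 0.23 on the log2 scale (adjusted p = 0.106, and 0.0102 by limma-voom), with 22.8 to 36.3 CPM in controls and 13.8 to 25.4 CPM in recovery. With the Hox covariate *Tirap* was at -0.11 (edgeR adjusted p = 0.847). In all, 2 of the 9 genes were called, and both were lower; 22.2% of all genes were called (12.2% lower), and 37.7% did not overlap, as 2 of the 9 did not. The other 5 genes had log2 fold changes from -0.58 (*Nod1*) to 0.79 (*Tlr2*), and the median of the 9 was -0.40, beside -0.039 over all genes.

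These counts turned on WT control replicate 2. Without it, 7 of the 9 genes were called between WT recovery and control. *Tlr5* (3.61), *Tlr2* (1.57) and *Ripk2* (0.62) were then higher on the log2 scale, with adjusted p of 0.000425, 0.0221 and 0.0483. *Nod1* (-0.85), *Inava* (-0.72), *Tirap* (-0.72) and *Myd88* (-0.65) were then lower, with adjusted p of 0.0319, 0.00621, 0.0341 and 0.0111. The share of all genes called was 25.1% in that fit. The 2 WT controls that remain both have distal Hox expression and the 3 recovery libraries have none, so Hox state and recovery cannot be told apart there.

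In *Cldn2*KO mice 5 of the 9 genes were called between recovery and control, 4 higher and 1 lower, where 19.4% of all genes were called (9.43% higher and 10.0% lower). The receptors for muramyl dipeptide, lipoproteins and flagellin moved most. *Nod2* went from 0.838, 0.610 and 0.700 CPM to 2.20, 7.56 and 5.81 CPM, a log2 fold change of 2.85 ± 0.45, or 7.19-fold (adjusted p = 0.000919). *Tlr2* went from 7.20, 7.49 and 8.45 CPM to 60.1, 31.8 and 28.3 CPM, at 2.38 ± 0.52, or 5.19-fold (adjusted p = 0.00591). For both genes every recovery library was above every control library. *Tlr5* went from 2.02, 2.22 and 1.99 CPM to 22.2, 15.5 and 11.9 CPM, at 2.99 ± 0.72, or 7.93-fold (adjusted p = 0.00928), again with no overlap.

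*Inava*, which fell in WT mice, rose from 58.4, 65.5 and 68.2 CPM in *Cldn2*KO controls to 71.0, 111.0 and 94.8 CPM in recovery, at 0.53 ± 0.17 on the log2 scale (adjusted p = 0.0386). *Nod1* fell from 16.6, 17.2 and 18.7 CPM to 10.4, 6.73 and 11.2 CPM, at -0.89 ± 0.30 (adjusted p = 0.0460). Neither gene overlapped between the groups, and 5 of the 9 genes did not overlap, beside 40.3% of all genes. The calls of *Inava* (adjusted p from 0.0687 to 0.133) and *Nod1* (0.0857 to 0.122) were lost without any 1 *Cldn2*KO control library, and *Nod1* also without any 1 *Cldn2*KO recovery library (adjusted p from 0.0514 to 0.178), *Inava* without *Cldn2*KO recovery replicate 2 or 3 (adjusted p = 0.182 and 0.0841). In all, *Inava* was lost in 10 of 15 alternatives, among them upper-quartile scaling (adjusted p = 0.0857) and only the groups compared (adjusted p = 0.0597). The other 4 genes had log2 fold changes between -0.038 (*Myd88*) and 0.23 (*Ripk2*).

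All 3 *Cldn2*KO controls had distal Hox expression and all 3 *Cldn2*KO recovery libraries lacked it, so the change in these 5 genes and the Hox state cannot be told apart within *Cldn2*KO mice. With Hox state as a covariate, whose size then rests on WT control replicate 2, none of the 5 was called, where 0.785% of all genes were: *Nod2* stayed at 3.05 on the log2 scale (adjusted p = 0.107), *Tlr2* was at 0.68 (adjusted p = 0.764), *Inava* at 0.081 (adjusted p = 0.940), *Nod1* at 0.082 (adjusted p = 0.966) and *Tlr5* at -0.028 (adjusted p = 0.997). The macrophage and monocyte markers moved the other way from *Nod2* and *Tlr2*. They summed to 238 to 301 CPM in WT and 111 to 389 CPM in *Cldn2*KO controls, and to 51.6 to 89.2 and 33.0 to 44.2 CPM in recovery, with 7 of 12 called lower in WT and 8 of 12 in *Cldn2*KO mice. Neutrophil markers summed to 3.01 to 8.58 CPM in WT recovery and 3.43 to 24.6 CPM in *Cldn2*KO recovery, with 3 of 5 tested called higher in *Cldn2*KO mice. Smooth muscle markers summed to at most 2021 CPM in the 6 recovery libraries and to at least 3528 CPM in the 6 controls, and the part of these cells in the results was not tested.

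*Tlr5* followed the Hox split without exception. In the 7 libraries with *Hoxb13* at or under 10 CPM it ranged from 5.38 to 22.2 CPM (median 12.7), and in the 11 others from 0.747 to 3.73 CPM (median 1.51). WT control replicate 2, at 7.01 CPM, was with the recovery libraries and not with its own group. No other of the 9 genes was separated by this split. How many of all genes the split separates was not counted, so the separation is not shown to be particular to *Tlr5*. *Nod1* came near, at 11.5 to 23.3 CPM in the 11 and 6.73 to 14.2 CPM in the 7, and *Tlr2* as well, at 7.20 to 40.9 CPM in the 11 and 28.3 to 86.3 CPM in the 7. *Nod2* overlapped widely, at 0.610 to 6.86 CPM in the 11 and 2.20 to 7.56 CPM in the 7.

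**Figure D4:**
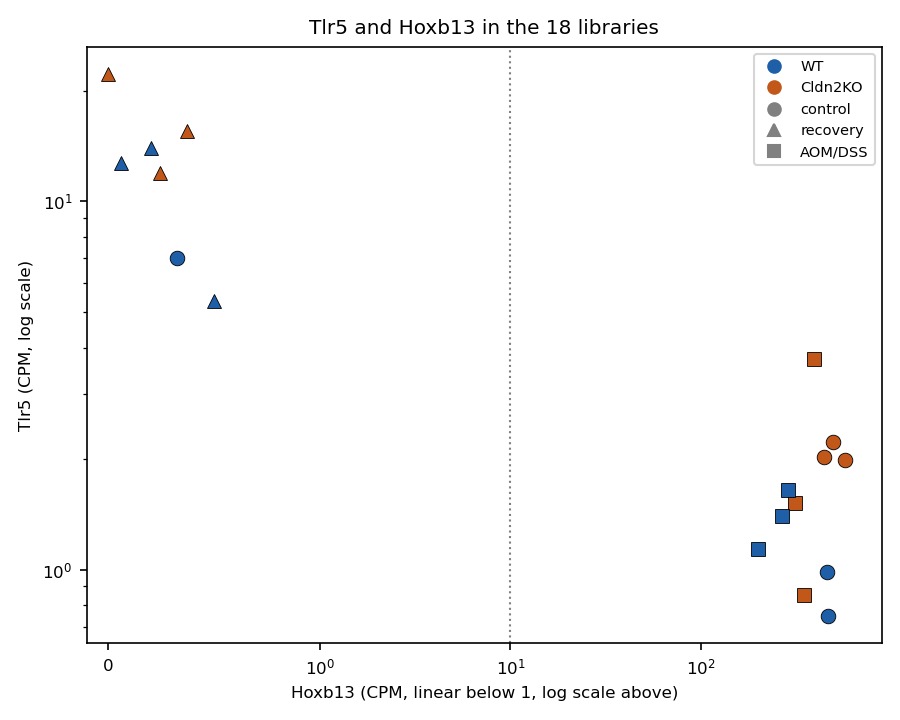
*Tlr5* CPM (log scale) against *Hoxb13* CPM (linear below 1, log scale above) in the 18 libraries, with genotype as color and treatment as shape; the dotted line is 10 CPM. The 7 libraries left of it, of which 1 is a WT control, range from 5.38 to 22.2 CPM of *Tlr5*, and the 11 right of it from 0.747 to 3.73 CPM.

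The difference between the genotypes in their change from control to recovery was tested as an interaction. *Inava* was called, with a difference of 1.39 ± 0.24 on the log2 scale (adjusted p = 0.0368): it fell in WT and rose in *Cldn2*KO mice. It was the 1 gene of the 9 called, where 0.130% of all genes were. The call held in 7 of 21 alternatives, and the estimate stayed between 1.23 and 1.55; leaving out any 1 of the 12 libraries other than WT control replicate 3 and *Cldn2*KO recovery replicate 1 ended it (adjusted p from 0.0513 to 0.148). Of the 10 epithelial markers, 9 had an interaction above 0 (median 0.54), with 0 called by edgeR and 3 at an unadjusted p under 0.05. In *Cldn2*KO recovery against control 1 of the 10 was called higher and 0 lower (median -0.010), and the part of the epithelial markers in the difference was not tested.

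*Nod2* had a larger difference, 2.75 ± 0.61, that did not pass by edgeR (adjusted p = 0.0704, and 0.00263 to 0.185 over the alternatives) and passed by DESeq2 (2.75, adjusted p = 0.00263) and limma-voom (2.58, adjusted p = 0.00543). *Tlr2*, at 1.58 ± 0.70 (adjusted p = 0.245), and *Myd88*, at 0.57 ± 0.21 (adjusted p = 0.171), did not pass by edgeR either, and limma-voom called *Myd88* (0.70, adjusted p = 0.0186). *Nod2* in WT mice moved by 0.10 on the log2 scale between control and recovery, beside 2.85 in *Cldn2*KO mice. The other 5 genes differed by between -0.31 and 1.08.

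With AOM/DSS against control, *Inava* was lower in WT mice. It was at 87.1, 112.7 and 78.2 CPM in controls and 62.1, 65.7 and 54.2 CPM after AOM/DSS, without overlap, a log2 fold change of -0.61 ± 0.17 (adjusted p = 0.0360). *Myd88* did not overlap either, at 30.9, 29.7 and 31.4 CPM against 26.2, 20.7 and 26.2 CPM, but at -0.33 ± 0.15 it did not pass by edgeR (adjusted p = 0.144) and did by limma-voom (-0.48, adjusted p = 0.0155). The 1 gene of the 9 called and the 2 without overlap stand beside 10.4% and 32.2% of all genes. The call on *Inava* was lost in 9 of 15 alternatives: without WT control replicate 1 or 2 and without any 1 WT AOM/DSS library (adjusted p from 0.0508 to 0.140), by limma-voom (-0.38, adjusted p = 0.0650), with no filter (adjusted p = 0.0707), with the Hox covariate (adjusted p = 0.150) and with only the groups compared (adjusted p = 0.168). Without WT control replicate 2 its log2 fold change was -0.46 and 1.99% of all genes were called. The 5 neutrophil markers tested were all called higher in WT AOM/DSS, where the 8 markers summed to 2.86, 15.9 and 337 CPM, beside at most 2.47 CPM in controls. Epithelial markers were called lower for 5 of 10 (median log2 fold change -0.70), and summed to 13934 to 19410 CPM after AOM/DSS, beside at least 25222 CPM in controls. Smooth muscle markers were called lower for 2 of 6 (median -1.41), and summed to 524 to 2789 CPM, beside 3528 to 5313 CPM in controls. The part of these cells in the result was not tested.

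In *Cldn2*KO mice *Nod2* was higher after AOM/DSS than in controls, going from 0.838, 0.610 and 0.700 CPM to 2.76, 3.96 and 4.09 CPM, without overlap. The log2 fold change was 2.32 ± 0.45, or 4.99-fold, with an adjusted p of 0.0494, near the threshold. *Tlr2* went from 7.20, 7.49 and 8.45 CPM to 20.4, 13.6 and 30.0 CPM, also without overlap, but the log2 fold change of 1.47 ± 0.51 did not pass by edgeR (adjusted p = 0.200), though it did by limma-voom (1.63, adjusted p = 0.00648) and with only the groups compared (adjusted p = 0.0191). Here 1 of the 9 was called and 2 did not overlap, beside 0.195% and 29.1% of all genes. Both groups have distal Hox expression in all 6 libraries, but *Xist* was above 10 CPM in AOM/DSS replicates 2 and 3 and in none of these controls. The call on *Nod2* was lost without any 1 *Cldn2*KO control library and without *Cldn2*KO AOM/DSS replicate 1 or 3 (adjusted p from 0.128 to 0.326). It was also lost with the *Xist* covariate (1.97, adjusted p = 0.253), median-ratio size factors (adjusted p = 0.0504) and upper-quartile scaling (adjusted p = 0.0559). The estimate stayed between 1.97 and 2.48 in all 15 alternatives. Neutrophil markers summed to 5.71 to 19.4 CPM in these AOM/DSS libraries and to at most 0.646 CPM in the controls; none of the 5 tested was called by edgeR and all 5 had an unadjusted p under 0.05 (median log2 fold change 6.12). Smooth muscle markers summed to 2183 to 5476 CPM after AOM/DSS and 7225 to 9601 CPM in controls, without overlap, with none of 6 called by edgeR and 5 at an unadjusted p under 0.05 (median -1.28). The part of these cells in the result was not tested.

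The genotype difference in the change with AOM/DSS was called for none of the 9 genes by edgeR (0.0118% of all genes), while 3 had an unadjusted p under 0.05 (8.44% of all genes) and limma-voom called 1, *Nod2*. *Nod2* differed by 1.81 ± 0.60 (adjusted p = 0.497), *Tlr2* by 1.82 ± 0.71 (adjusted p = 0.517) and *Inava* by 0.78 ± 0.24 (adjusted p = 0.447) on the log2 scale. All 3 differences were above 0, that is, toward a greater rise or a lesser fall in *Cldn2*KO mice. Both interactions use the same control libraries.

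Over the 6 groups, the order of the mean levels showed how often neighbours overlapped. The share of all genes with a gap between neighbours was not counted, so the gaps given here and below only describe these genes. For *Nod2* the *Cldn2*KO controls, at 0.716 ± 0.115 CPM (SD, n = 3), were last and did not overlap the next group, the WT controls at 3.32 ± 0.324 CPM, and the 5 upper groups overlapped from one to the next up to 5.19 ± 2.74 CPM in *Cldn2*KO recovery. For *Tlr2* the *Cldn2*KO controls, at 7.71 ± 0.655 CPM, were likewise last and apart from *Cldn2*KO AOM/DSS at 21.3 ± 8.25 CPM, and WT recovery was first at 60.2 ± 23.3 CPM. For *Tlr5* the order ran from *Cldn2*KO recovery at 16.5 ± 5.21 CPM and WT recovery at 10.7 ± 4.64 CPM to WT AOM/DSS at 1.39 ± 0.256 CPM, with every neighbour overlapping. A recovery group came first for each of these 3 receptors, and only the *Cldn2*KO controls, for *Nod2* and *Tlr2*, stood apart from their neighbour.

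The order for the remaining receptors, *Tlr4* and *Nod1*, had no such gap. *Tlr4* ran from 57.8 ± 6.46 CPM in WT AOM/DSS to 34.2 ± 3.01 CPM in WT recovery and *Nod1* from 19.4 ± 6.55 CPM in WT controls to 9.46 ± 2.40 CPM in *Cldn2*KO recovery, with all neighbours overlapping. WT control replicate 2 was the lowest of all 18 libraries for *Tlr4*, at 25.3 CPM, and among the lower ones for *Nod1*, at 11.8 CPM.

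Of the adaptor and kinase genes, *Inava* ran from 92.7 ± 17.9 CPM in WT controls and 92.2 ± 20.1 CPM in *Cldn2*KO recovery to 50.9 ± 4.45 CPM in WT recovery, which alone did not overlap its neighbour, WT AOM/DSS at 60.7 ± 5.84 CPM. *Myd88* was highest in WT controls, at 30.7 ± 0.842 CPM, apart from the next group, *Cldn2*KO controls at 25.3 ± 2.32 CPM. *Ripk2*, the kinase shared by Nod1 and Nod2, ran from 12.9 ± 1.72 CPM in WT recovery to 9.47 ± 0.890 CPM in *Cldn2*KO AOM/DSS, and edgeR called it in none of the 9 comparisons when all 18 libraries were used; limma-voom called it in WT recovery against control (0.51 on the log2 scale, adjusted p = 0.00715). *Tirap* ran from 37.0 ± 4.84 CPM in WT AOM/DSS to 21.1 ± 6.38 CPM in WT recovery. For *Ripk2* and *Tirap* every neighbour overlapped.

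The other genes of these pathways were followed in 8 lists with 86 genes, of which 82 were tested; *Tlr11*, *Pglyrp3*, *Pglyrp4* and *Il6* had too few reads. Between the genotypes the 82 genes gave 1 call in controls, 0 in recovery and 0 after AOM/DSS by edgeR, with 20, 18 and 12 at an unadjusted p under 0.05 (13.1%, 19.9% and 5.60% of all genes). DESeq2 called 6, 6 and 0 of the 82 (4.07%, 10.3% and 0.0237% of all genes) and sample-weighted limma-voom 29, 10 and 0 (15.1%, 11.2% and 0.0059% of all genes). The gene called in controls was *Nfkbiz*, an NF-kB target that encodes the inhibitor-like nuclear protein IkB-zeta, lower in *Cldn2*KO mice at -1.36 ± 0.16 on the log2 scale (adjusted p = 0.000914). It was also the only one of the 82 that edgeR called in the recovery interaction, at 1.70 ± 0.23 (adjusted p = 0.0155), falling in WT mice (-0.72, adjusted p = 0.00661) and rising in *Cldn2*KO mice (0.98, adjusted p = 0.00107). Without *Cldn2*KO control replicate 1 or 2, WT recovery replicate 2 or 3, or *Cldn2*KO recovery replicate 2, edgeR called 0 list genes (0% of all genes). Without *Cldn2*KO recovery replicate 1 it called 5 (1.81% of all genes). DESeq2 called 8 and limma-voom 19 (7.56% and 10.4% of all genes).

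In WT recovery against control 20 of the 82 genes were lower and none higher, with 22.2% of all genes called. Without WT control replicate 2 the count was 23 lower and none higher, with 25.1% of all genes called. DESeq2 called 25 lower and 2 higher, with 27.2% of all genes called, and limma-voom 34 lower and 8 higher, with 48.0% of all genes called. Without WT control replicate 1 or WT recovery replicate 3 edgeR called 14 and 13, all lower, with 10.7% and 13.6% of all genes called. The lower genes included 4 of 8 other Toll-like receptors, among them *Tlr13* (-2.39 ± 0.43, adjusted p = 0.00213), *Tlr7* (-2.57 ± 0.57, adjusted p = 0.00578) and *Tlr12* (-1.67 ± 0.47, adjusted p = 0.0194), which sense nucleic acids or parasite profilin. Among co-receptors *Ly86* (-2.32, adjusted p = 0.00518), which pairs with the Tlr4-related *Cd180*, and *Lbp* (-2.19, adjusted p = 0.00735), the lipopolysaccharide-binding protein, were lower. From the list drawn up as inhibitors, *Tnfaip3* (-1.97, adjusted p = 0.00549), *Peli1* (-0.58, adjusted p = 0.00770) and *Rnf216* (-0.47, adjusted p = 0.0109) were lower too. Whether each gene of that list, *Peli1* among them, acts as an inhibitor in colon was not tested. Macrophage markers fell in the same libraries, as given above.

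In *Cldn2*KO recovery against control 13 of the 82 genes were higher and 9 lower, with 19.4% of all genes called. Without *Cldn2*KO control replicate 3 or *Cldn2*KO recovery replicate 2 it was 3 higher and 6 lower, without *Cldn2*KO control replicate 1 it was 7 and 6, without replicate 2 it was 5 and 6, and with upper-quartile scaling 8 and 10, so which direction held more calls changed with the setting. With Hox state as a covariate 1 was called, which was higher, and the 20 calls in WT recovery became 9, all lower, while the shares of all genes fell to 0.785% and 8.72%. Among the higher were *Traf6* (0.73, adjusted p = 0.0188) and *Tab2* (0.65, adjusted p = 0.0191), which relay Myd88 signals, *Xiap* (0.76, adjusted p = 0.0230), a ubiquitin ligase that acts on Ripk2, and the flagellin and secretion-system sensors *Naip5* (0.79, adjusted p = 0.00576) and *Nlrc4* (0.73, adjusted p = 0.0229). From the list drawn up as inhibitors, *Irak3* (1.28, adjusted p = 0.00525) and *Peli3* (1.18, adjusted p = 0.0235) were higher and *Peli1* (-0.60, adjusted p = 0.00610) was lower. *Ticam2* (-6.33, adjusted p = 0.00609), *Ly86* (-2.47, adjusted p = 0.00424) and *Tlr13* (-1.75, adjusted p = 0.00904) were lower, as they were in WT recovery, where *Ticam2* was at -4.83 (adjusted p = 0.00727).

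After AOM/DSS in WT mice 4 of the 82 genes were higher and 6 lower, 10 of the 82 in all, with 10.4% of all genes called. All 4 that were higher came from the list of NF-kB targets, namely the chemokines *Cxcl5* (5.15 ± 1.27, adjusted p = 0.0265) and *Ccl20* (1.83, adjusted p = 0.0429), the antimicrobial siderophore-binding protein *Lcn2* (4.55 ± 1.30, adjusted p = 0.0409) and the cytokine *Il1b* (3.17, adjusted p = 0.0476), which was added to the named genes after its value was seen. Neutrophil markers were also higher in these libraries, up to a sum of 337 CPM in replicate 3, and their part was not tested. *Nlrp6* (-1.98 ± 0.34, adjusted p = 0.00669), an epithelial sensor, and the adaptor *Ticam1* (-1.03 ± 0.14, adjusted p = 0.00197) were lower. Leaving out replicate 2 of the WT controls gave 0 higher and 3 lower (1.99% of all genes called). Leaving out WT control replicate 1 gave 0 and 4 (6.24%), and leaving out WT AOM/DSS replicate 3 gave 0 and 2 (0.982%). A fit of only the groups compared called 0 of 80, where 0.0447% of all genes were called. In *Cldn2*KO mice edgeR called 0 of the 82 after AOM/DSS, with 21 at an unadjusted p under 0.05 (15.2% of all genes), and DESeq2 called 8 and limma-voom 21 (3.56% and 18.3% of all genes).

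**Figure D5:**
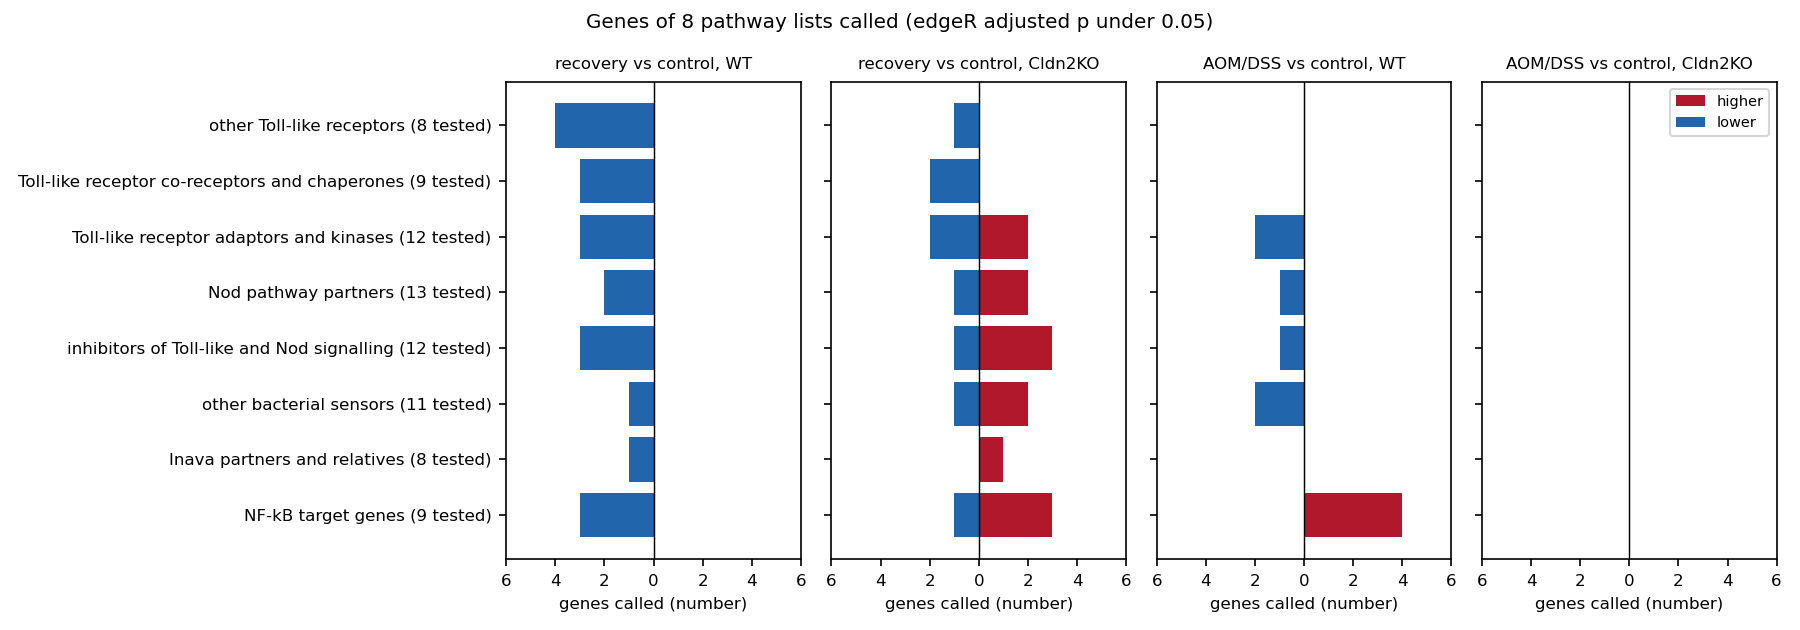
Number of genes called higher (right, red) or lower (left, blue) in each of 8 lists of pathway genes, for recovery and AOM/DSS against control in each genotype. The calls in WT recovery are all lower (20), those in *Cldn2*KO recovery go both ways (13 higher, 9 lower), and *Cldn2*KO AOM/DSS has none.

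Finally, the genes whose pattern was most like each member were looked up among 14341 genes with a mean of at least 1 CPM, by the smaller of 2 Pearson correlations of log2 CPM, one over the 11 libraries with distal Hox expression and one over the 7 without. The points share library scaling and tissue make-up, so these are descriptions. *Inava* was closest to *Llgl2* (0.95 and 0.99) and *Tjp3* (0.90 and 0.98), which encode a polarity protein and a tight junction protein of epithelia. *Nod2* was closest to the neutrophil chemokine *Cxcl1* (0.92 and 0.98) and to *Bpgm* (0.91 and 0.90). *Tlr2* was closest to *Cd244a* (0.91 and 0.88) and *Bbc3* (0.88 and 0.86). The other 6 genes had closest partners with a smaller correlation between 0.75 (*Tlr4* with *Zfx*) and 0.91 (*Tirap* with *Nckap1*), and among them were *Atp6v1a* for *Tlr5* and *Trim30d* for *Nod1*.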

How the data were processed

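Libraries were sequenced on an Illumina NovaSeq6000. The deposited values are counts of reads per gene, raw and not normalized, which the authors made from alignments to GRCm38; the submitters' processing notes name HISAT2, featureCounts and Subread, whereas the study's methods name TopHat2, and versions, annotation release and strandedness are not given in the sources used here. Each library had 2 lane columns, which were summed (36 columns, 18 libraries, 17.6 to 27.4 M reads; intervals from such totals would cover counting error only). Symbols and gene spans came from GENCODE M21 (47310 of 47729 genes matched). Genes were filtered with filterByExpr, scaled by TMM, and fitted in 1 edgeR (4.0.16) quasi-likelihood model with 6 group means. Benjamini-Hochberg adjustment ran over all 16937 genes tested, and a gene was called at an adjusted p under 0.05. SE is the absolute log2 fold change over the square root of F. CPM are TMM-scaled.

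The 9 genes, the lists and the tests were chosen with earlier results of these data known. Fold changes are given for each member and comparison with an unadjusted p under 0.05, and other pairs by range; up to 3 called genes per other list are named, by smallest p. For the likeness search log2 CPM had a prior count of 2. Alternatives were other scalings and filters, DESeq2 (1.42.0), limma-voom with sample weights (voomWithQualityWeights, limma 3.58.1; called limma-voom in the text), covariates for Hox and *Xist* state, only the groups compared, each library left out, and a replicate block. The fit without WT control replicate 2 for the other lists was chosen after seeing the data. Nothing was left out among the libraries.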

Additional observations from a re-analysis of the deposited data

Results flagged for a closer look

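The change in *Inava* from control to recovery differed between the genotypes by the interaction test, the only call among the 9 genes in the 2 interactions tested. The difference was 1.39 ± 0.24 on the log2 scale (edgeR adjusted p = 0.0368). *Inava* was lower in all 3 WT recovery libraries than in all 3 WT controls and higher in all 3 *Cldn2*KO recovery libraries than in all 3 *Cldn2*KO controls. The recovery libraries of both genotypes lack distal Hox expression, and with Hox state as a covariate the difference was 1.23 (adjusted p = 0.0508), within a range of 9.05e-05 to 0.148 over the 21 alternatives. Groups of 3 libraries were too small for the search for single outlying values.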

How the results depend on the processing

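Each library rests on 17.6 M reads or more, but *Nod2* and *Tlr5* had as few as 11 and 18 reads in a library, so their fold changes are the least precise, and groups of 3 limit all of them. The number of the 9 genes called, by comparison, was 1, 1 and 0 for *Cldn2*KO against WT in controls, recovery and AOM/DSS, 2 and 5 for recovery against control in WT and *Cldn2*KO mice, 1 and 1 for AOM/DSS against control, and 1 and 0 for the recovery and AOM/DSS interactions. With single libraries left out these counts ranged over 0 to 2, 0 to 1, 0 to 0, 2 to 7, 3 to 4, 0 to 1, 0 to 1, 0 to 2 and 0 to 0. In those fits the share of all genes called was, in the same order, 0.144% to 1.73%, 0.0173% to 2.61% and 0.00575% to 0.0116% between genotypes. For recovery against control it was 10.7% to 25.1% and 11.3% to 16.3%, and for AOM/DSS 0.982% to 9.75% and 0.023% to 1.22%. For the interactions it was 0 to 1.81% and 0 to 0.0633%. The other counts that moved by over 1.5 times were as follows. DESeq2 gave 2 in the control comparison and 2 in the recovery interaction (4.07% and 7.56% of all genes). Limma-voom with sample weights, which changes tool and weighting together, gave 4 in the control comparison, 8 in WT recovery, 2 in *Cldn2*KO AOM/DSS, 3 in the recovery interaction and 1 in the AOM/DSS interaction. In the same order it called 15.1%, 48.0%, 18.3%, 10.4% and 1.77% of all genes. The Hox covariate gave 1 in WT recovery, 0 in *Cldn2*KO recovery, 0 in WT AOM/DSS and 0 in the recovery interaction (8.72%, 0.785%, 1.89% and 0.118% of all genes). The *Xist* covariate gave 0 between genotypes in recovery, 3 in *Cldn2*KO recovery, 0 in *Cldn2*KO AOM/DSS and 0 in the recovery interaction (0.331%, 11.1%, 0.0295% and 0.0354% of all genes). Only the groups compared gave 0 between genotypes in recovery, 0 in WT AOM/DSS, 2 in *Cldn2*KO AOM/DSS and 0 in the recovery interaction (0.15%, 0.0447%, 5.87% and 0.0552% of all genes). No filter gave 3 in *Cldn2*KO recovery and 0 in WT AOM/DSS (8.6% and 3.09% of all genes). Median-ratio (RLE) size factors gave 0 in *Cldn2*KO AOM/DSS (0.183% of all genes). Upper-quartile scaling gave 0 in *Cldn2*KO AOM/DSS and 0 in the recovery interaction (0.142% and 0.0709% of all genes). Leaving out libraries leaves fewer samples, and for the rest the cause was not tested. In *Cldn2*KO recovery, 2 genes reversed with the Hox covariate: *Nod1* was at 0.082 and *Tlr5* at -0.028 on the log2 scale. No other of the 25 pairs of gene and comparison with an unadjusted p under 0.05 reversed. Of pairs given only as the end of a range, *Tlr5* between control genotypes was at 1.24 and in the recovery interaction at -0.64 without WT control replicate 2, *Tlr5* between genotypes after AOM/DSS at -0.21 without *Cldn2*KO AOM/DSS replicate 2, and, with the Hox covariate, *Nod1* at 0.14 and *Tlr2* at -0.10 in WT recovery and *Ripk2* at -0.38 in *Cldn2*KO recovery.

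With the replicate number as a block, fitted on the 6 control libraries alone, 0 of the 9 genes were called between the genotypes, and *Nod2* was at -2.22 (adjusted p = 0.123). The numbers were not taken to pair the libraries, since same-numbered libraries had correlations of 0.157, 0.00234 and 0.0794 in their deviations, and 1 WT control correlated best with another number. The other comparisons had no blocked fit, since the labels' numbers run across control samples only.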

Other observations

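Of 8 partners and relatives of *Inava*, *Cyth1*, a cytohesin that activates Arf proteins, was lower in WT recovery (-0.53 ± 0.13 on the log2 scale, edgeR adjusted p = 0.0108), and *Frmd4b* was higher in *Cldn2*KO recovery (0.62 ± 0.21, adjusted p = 0.0469). With 1 of 8 called in each genotype, the share was under the 22.2% and 19.4% of all genes called there. Stroma markers (7 collagen and fibroblast genes) summed to 400 to 672 CPM in the 6 control libraries and to 141 to 234 CPM in the 6 recovery libraries, with 3 of 7 called lower in each genotype. Endothelial markers were called lower for 3 of 6 in WT recovery and 0 of 6 in *Cldn2*KO recovery, and their summed level in recovery was 14.6 to 35.6 CPM in WT and 23.9 to 48.3 CPM in *Cldn2*KO mice. In the recovery interaction edgeR called 0 of the 6, with 0 at an unadjusted p under 0.05 (median 0.52).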
